A study of Mus musculus with 2 samples.

Results

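The 37 genes described here encode the enzymes of glycolysis, the transporters and regulators that feed and drain the pathway, and targets of the low-oxygen response. They were matched on the array by gene name and fall into 4 hexokinases, 15 later glycolytic enzymes, 7 transporters and flux regulators and 11 hypoxia response genes. All 37 had a probe on the array and passed the filter on dim probes, out of 30011 genes with a probe and 20909 tested. Every one of the 37 was well above background in both channels of both arrays, so none entered through only one group. Pkm2 was found under its current symbol Pkm.

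Ureters were dissected from NMRI mouse embryos at E13.5, and on each of 2 two-colour arrays a mutant pool of their total RNA was hybridised against a control pool. Mutant embryos carried Pax2-cre/+ together with Fgfr2(fl/fl) and Fgfr1(fl/?). Control embryos had no Cre allele in their label and carried Fgfr2(fl/?) and Fgfr1(fl/?), where the question mark stands for + or fl. On array 1 both pools were female and the mutant was labelled with Cy5; on array 2 both were male and the mutant was labelled with Cy3. The sex of the embryos and the dye of the mutant RNA therefore change together between the arrays and cannot be told apart. Cre recombinase was driven by Pax2, a gene of the nephric duct and of the ureteric epithelium that derives from it. Floxed Fgfr1 alleles were present in both kinds of pool, and the mutant pool mixed Fgfr1/+ with Fgfr1 fl/fl embryos. The number of embryos in a pool was not stated, so no p-value measures the spread between embryos. Each limma p-value rests on the spread between these 2 arrays, moderated by that of all genes (1 residual and 6.30 prior degrees of freedom). Below, mutant and control mean the pools so labelled.

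Glycolysis splits glucose into pyruvate in the cytosol and yields ATP without oxygen. Hexokinases phosphorylate glucose and trap it in the cell, phosphofructokinase commits it to the pathway, and lactate dehydrogenase and the monocarboxylate carriers dispose of the pyruvate as lactate. When oxygen is scarce, the prolyl hydroxylases of the Egln family no longer mark the hypoxia-inducible factor for destruction, and the factor binds hypoxia response elements and raises transcription of many glycolytic genes together with Vegfa, Adm, Car9 and others. FGF receptors signal through the ERK and PI3K routes, which are known to raise glucose uptake and glycolytic gene expression in many growing cells. The embryonic kidney and urinary tract develop at low oxygen tension.

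The ratio of each gene rests on 60-base probes, 4 spots to a probe, and the spots of one probe are not replicates of the condition. The hexokinase probes are shown because these paralogs give the widest spread of ratios among the 4 classes. Bases 1 to 30 of each probe, with its design position on mm9, are given 5′ to 3′.
Hkdc1, chr10:61845922-61845981, minus strand: gtgacacagtaggtgtcgctgttttctgca
Hk1, chr10:61731230-61731288, minus strand: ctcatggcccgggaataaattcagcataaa
Hk2, chr6:82675056-82675115, minus strand: tagtgagcgttttgtcatcatgtacagtag
Hk3, chr13:55107900-55107959, minus strand: aagatctggggctgactctgacatctgatg
Over the full 60 bases, the longest run shared by the Hkdc1 probe with another hexokinase probe was 7 bases, with Hk2. It shared at most 5 bases with the Hk1 probe and 6 with the Hk3 probe. Among the paralog pairs of the other classes the longest shared run was 8 bases, for Ldha with Ldhb and for Egln1 with Egln3. Probes were compared only with probes. The transcripts of the paralogs were not searched, so these runs do not test cross-hybridisation.

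The floxed genes were read first. The brighter Fgfr2 probe had log2 ratios of mutant over control of 0.27 on array 1 and 0.06 on array 2, and the other Fgfr2 probe 0.08 and 0.09. The brightest Fgfr1 probe read 0.27 and -0.44, and the others 0.03 and 0.51 in one case and 0.17 and -0.16 in the other. No source used here gives the place of these probes relative to the floxed segments, so they do not check the labels. Xist, which is transcribed from the inactive X chromosome, had a normalised level of 12.42 on the log2 scale in both female pools, 8.39 in the male mutant pool and 10.00 in the male control pool. The control pool labelled male therefore carried more Xist signal than the mutant pool beside it. The Y-linked genes were high in both male pools. Ddx3y stood at 11.88 in the male mutant and 11.57 in the male control pool, against 8.15 and 8.44 in the female pools. Eif2s3y stood at 11.22 and 11.51, against 8.27 and 8.41. Of the 39429 gene probes, 67.8% to 77.0% per channel were well above background and no spot was saturated. The SD of the ratios over all tested probes was 0.20 on array 1 and 0.32 on array 2.

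Hkdc1 had the largest difference of the 37 genes, lower in the mutant on both arrays, and most other members had ratios near 1. The median log2 ratio of the 37 genes was -0.05 against 0.0044 for all genes tested. No member passed an adjusted p of 0.05 in limma with Benjamini-Hochberg adjustment, where 0.0287% of all genes passed, and the lowest adjusted p of a member was 0.542, for Hkdc1. At an unadjusted p under 0.05 there were 3 members, where 4.04% of all genes stood: Hkdc1 among the lower genes (1.43% of all genes) and Pfkl and Pfkp among the higher (2.61% of all genes). In these bulk samples, fewer cells of a type and less RNA per cell cannot be told apart.

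In direction, 13 members (35.1%) were lower in the mutant on both arrays, where 21.4% of all genes were. A further 8 (21.6%) were higher on both arrays, where 22.1% of all genes were. The remaining 16 (43.2%) pointed opposite ways on the arrays, where 56.5% of all genes did. Of these 16, 10 were higher on array 1 and lower on array 2, and 6 the reverse. With median centring in place of loess, 17 members were lower on both arrays and 4 higher. The mutant was at least 1.2-fold lower on both arrays for 1 member, Hkdc1 (1.33% of all genes), and at least 1.2-fold higher on both for 1, Pfkl (2.07% of all genes). No member differed by at least 1.2-fold in opposite ways, where 3.52% of all genes did. The ratio stayed within 1.2-fold of 1 on both arrays for 25 members.

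**Figure D1:**
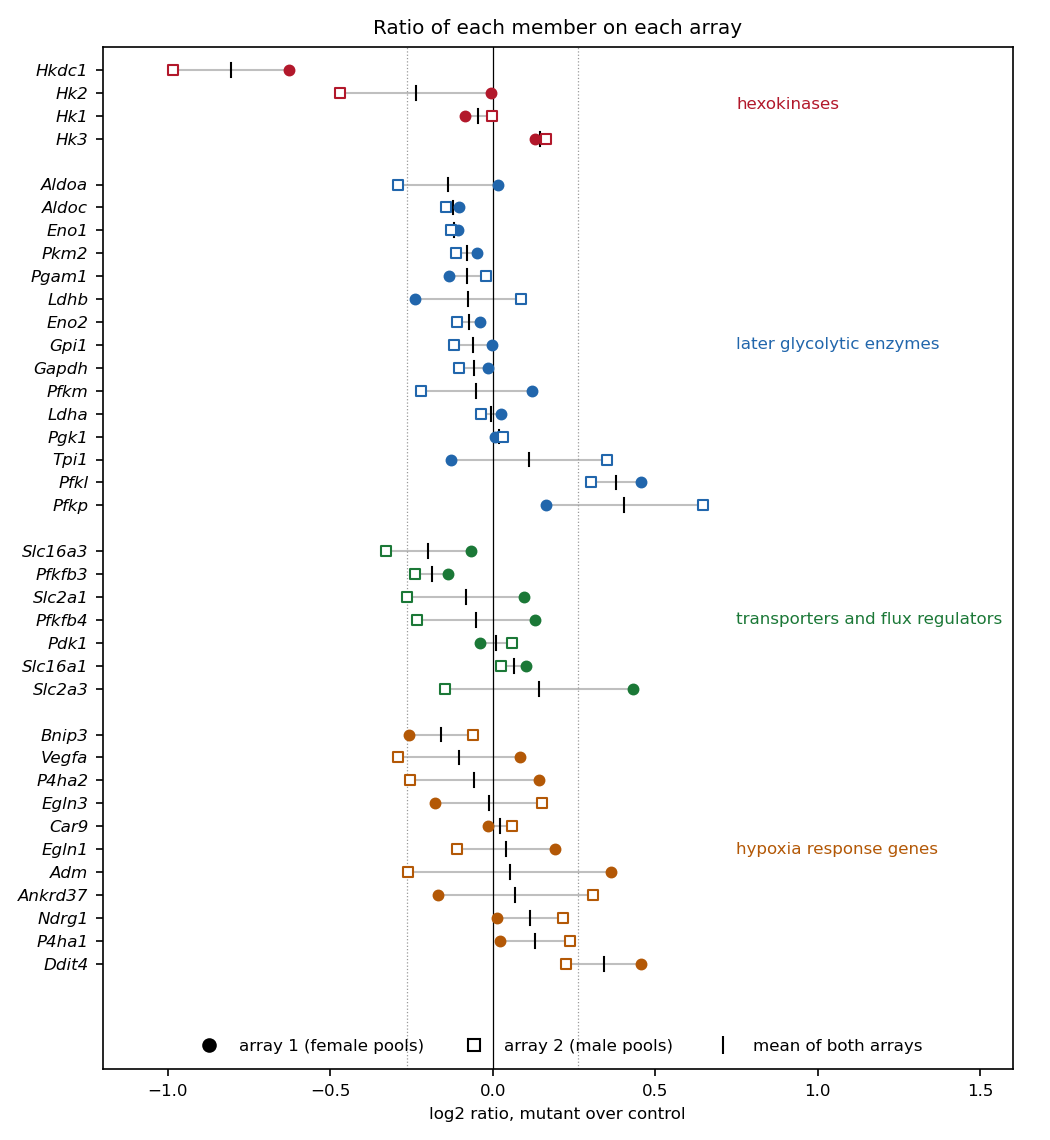
Log2 ratio of mutant over control for each of the 37 genes on array 1 (filled circles) and array 2 (open squares), with the mean of both as a bar; genes are grouped by class and dotted lines mark 1.2-fold. Hkdc1 lies apart at -0.63 and -0.98, Pfkl is past the upper line on both arrays, and most other genes straddle or hug 0.

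The 36 genes other than Hkdc1 had mean log2 ratios from -0.24 to 0.40, and 33 of these means were within 1.2-fold of 1. The limma 95% confidence interval of the mean had a median distance from mean to bound of 0.36 on the log2 scale. By the brightest probe, the interval lay within 2-fold either way for all 36, with bounds between -0.64 and 0.81. No interval was computed for the other probes, whose means reached 0.59 for Tpi1 and -0.42 for Vegfa. By this unadjusted interval, differences smaller than about 0.36 could not be resolved with 2 arrays, so a ratio near 0 does not show that a gene was the same in both. The adjusted p threshold asks for larger differences. In simulated data it called 7.95% of planted 1.5-fold and 74.1% of planted 2-fold differences.

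Hkdc1 encodes a hexokinase-domain protein, the most recently recognised member of the family, and its gene lies next to Hk1 on chromosome 10. On array 1 its normalised level was 11.21 in mutant and 11.84 in control RNA, and on array 2 it was 11.03 and 12.02. Both mutant levels were below both control levels. That alone sets Hkdc1 little apart, since it also held for Gapdh, at 16.67 and 16.68 against 16.69 and 16.79. The share of all genes separated in this way was not counted. The mutant signal was 0.647 of the control signal on array 1 and 0.506 on array 2. The log2 ratios of -0.63 and -0.98 gave a mean of -0.81 ± 0.25 (SD, n = 2 arrays), a 1.75-fold lower signal, with a limma 95% interval from -1.18 to -0.43. The mean ranked 13 from the lowest among 20909 genes, and Hkdc1 was the only member at least 1.5-fold lower on both arrays, which 0.0957% of all genes were. In limma the unadjusted p was 0.0014 and the Benjamini-Hochberg adjusted p 0.542, so the difference was not called.

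All spots of the Hkdc1 probe pointed the same way. The 3 spots kept on array 1 read -0.72, -0.65 and -0.51, and the 4 spots on array 2 read -1.15, -1.05, -0.92 and -0.82. These spots share the probe printed above and the same RNA, and Hkdc1 had no other probe against which to set it. Over the 9 processing settings tried, its mean ratio ran from -0.95 to -0.80.

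None of the other hexokinases was past 1.2-fold on both arrays. Hk1, the broadly expressed hexokinase bound to mitochondria, had normalised levels of 15.08 in the mutant and 15.16 in the control on array 1, and 14.98 and 14.99 on array 2. Its ratios were -0.09 and -0.0022, a mean of -0.04 ± 0.06 (SD, n = 2 arrays). The other Hk1 probes read 0.26 and -0.65 in one case and 0.06 and -0.07 in the other, so each of these pointed opposite ways on the arrays.

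Hk2, the inducible hexokinase of insulin-sensitive and hypoxic tissue, was past 1.2-fold on array 2 only. Its mutant and control levels were nearly equal on array 1 (11.71 and 11.71), and 11.40 and 11.87 on array 2. Its ratios of -0.0051 and -0.47 gave a mean of -0.24 ± 0.33 (SD, n = 2 arrays), with a limma interval from -0.64 to 0.16 that includes 0. Both mutant levels were below both control levels, but on array 1 by 0.0051 only.

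Hk3, known chiefly from myeloid blood cells, had levels of 6.88 in the mutant and 6.76 in the control on array 1, and 6.93 and 6.77 on array 2. Both mutant levels were above both control levels, a separation whose share over all genes was not counted. The ratios of 0.13 and 0.16 gave a mean of 0.15 ± 0.02 (SD, n = 2 arrays), and the limma interval from -0.20 to 0.49 included 0. The probe was dim, and the size of the mean depended on the processing. It was 0.21 with a normexp offset of 16 and ran from 0.15 to 0.32 over the 9 settings. In the authors' deposited table the Hk3 ratios, on the log2 scale, were 0.34 and 0.30. All 10 leukocyte markers had mean ratios above 0, from 0.11 to 2.21, and S100a8 and S100a9 were among the 6 genes called higher; their part in the Hk3 value was not tested.

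As a class, the hexokinases had a median log2 ratio of -0.14, with -0.05 on array 1 and -0.24 on array 2. Without Hkdc1 the median of the remaining hexokinases was -0.04, with -0.0051 and -0.0022 on the arrays. The low class median therefore rests on Hkdc1 and on the array 2 value of Hk2.

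**Figure D2:**
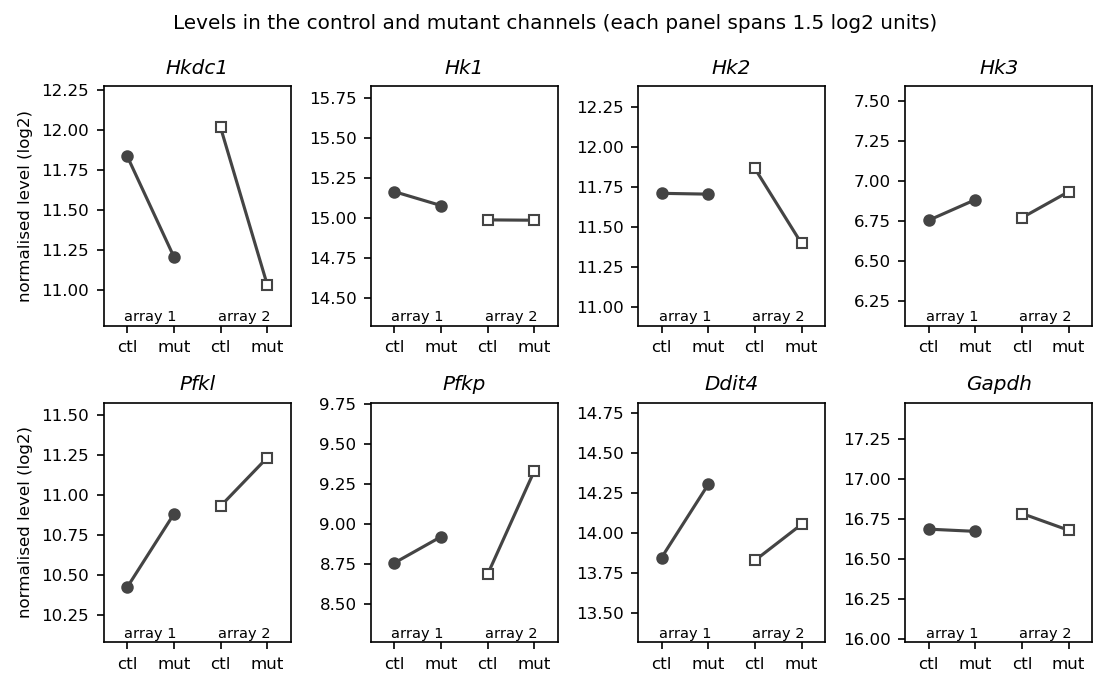
Normalised log2 level of 8 of the genes in the control (ctl) and mutant (mut) channel of array 1 (filled circles) and array 2 (open squares); every panel spans the same number of log2 units, so slopes can be compared. Hkdc1 goes from 11.84 to 11.21 and from 12.02 to 11.03, Hk1 and Gapdh are nearly flat, and Pfkl, Pfkp and Ddit4 slope upward on both arrays.

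The markers of the ureter's own cell types were present. Those of mesenchyme were mostly lower in the mutant, and those of epithelium were divided. Of 10 markers of ureteric epithelium, 5 were lower on both arrays, 1 was higher and 4 pointed opposite ways. Of all genes, 21.4% were lower on both arrays and 22.1% higher. The epithelial markers had a median mean ratio of -0.21, with single genes from -0.57 to 0.43. Their summed normalised level (log2 of the sum) was 16.28 and 16.19 in the mutant channels and 16.49 and 16.56 in the control channels. Of 10 markers of ureteric mesenchyme, 8 were lower on both arrays and none higher, with a median of -0.32 and summed levels of 16.74 and 16.62 in the mutant against 16.92 and 16.99 in the control. No epithelial or mesenchymal marker passed the adjusted p threshold in limma. The mean Hkdc1 ratio of -0.81 was below the mean of each of these 20 markers, of which Foxf1 had the lowest, -0.73. On single arrays a marker lay below Hkdc1, Foxf1 on array 1 (-0.64) and Ehf on array 2 (-1.03). The part of these shifts in the Hkdc1 value was not tested.

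Markers of other tissues were mostly higher in the mutant. Of all genes, 22.1% were higher on both arrays. Both arrays were higher for 7 of 10 leukocyte, 8 of 10 erythroid, 6 of 9 skeletal muscle, 9 of 10 neuronal, 6 of 10 endothelial and all 10 liver markers, with median mean ratios of 0.43, 0.78, 0.29, 0.35, 0.11 and 0.67. The summed leukocyte level was 15.15 in the mutant and 14.88 in the control on array 1, and 16.08 and 15.30 on array 2. The summed erythroid level was 19.32 in the mutant and 17.89 in the control on array 1, and 19.18 and 18.83 on array 2. The summed liver level was 13.64 and 12.44 on array 1, and 13.15 and 12.62 on array 2. Their part in the ratios of the glycolytic and hypoxia genes, which most cell types express, was not tested.

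The later enzymes of glycolysis were more often lower than higher in the mutant, by small steps. Their median log2 ratio was -0.06, with -0.01 on array 1 and -0.10 on array 2. Of the 15 genes, 7 were lower on both arrays, 3 higher and 5 mixed, and none passed the adjusted p threshold. With median centring, which moved the median of all genes to -0.09, the class median was -0.24.

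Phosphofructokinase, the committing step, held the 2 highest mean ratios among all 37 genes. Pfkl, its liver-type subunit, had levels of 10.88 in the mutant and 10.43 in the control on array 1, and 11.23 and 10.93 on array 2. The arrays differed in level, so the mutant level of array 1 lay below the control level of array 2, but within each array the mutant was higher. The ratios of 0.46 and 0.30 gave a mean of 0.38 ± 0.11 (SD, n = 2 arrays), a 1.30-fold higher signal, with a limma interval from 0.03 to 0.73. In limma its unadjusted p was 0.037 and its adjusted p was above 0.99. Of the 8 Pfkl spots, 7 were above 0, and the exception on array 2 read -0.03.

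Pfkp, the platelet-type subunit, had levels of 8.92 and 8.76 on array 1 and 9.33 and 8.69 on array 2, mutant before control. Its ratios of 0.16 and 0.65 gave a mean of 0.40 ± 0.34 (SD, n = 2 arrays), with an unadjusted p of 0.049 in limma. The other Pfkp probe read -0.13 and -0.35, opposite in sign on both arrays. With the mean of both probes the Pfkp value was 0.08. Pfkm, the muscle-type subunit, read 0.12 and -0.22. The phosphofructokinase subunits thus gave a higher value by a single probe for Pfkl and values of both signs for Pfkp and Pfkm. The probe stretches for the subunits with positive values are bases 1 to 30 on the minus strand of mm9. Over the full probes the pair shared at most 5 bases in a row, and cross-hybridisation was not tested.
Pfkl, chr10:77450926-77450985: ccgcaccttgagcatagacaagggtttctg
Pfkp, chr13:6581718-6583872, a genomic span longer than the probe: caaactgaaggggtcccagggcacagggaa

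Gpi1, which turns glucose 6-phosphate into fructose 6-phosphate, was read by 3 overlapping probes in nearly the same place, chr7:34987173-34987237 on mm9 when joined. They differ by single bases, counted from 1 at the 5′ end of the brightest probe: C13T in the next brightest and G20T in the dimmest. Bases 6 to 35 are shown with both variable bases in capitals.
Gpi1 brightest: tgttgttCtgacctGtatttcacaccccag
Gpi1 next brightest: tgttgttTtgacctGtatttcacaccccag
Gpi1 dimmest: tgttgttCtgacctTtatttcacaccccag
The brightest probe read -0.0030 on array 1 and -0.12 on array 2, the next -0.06 and 0.10, and the dimmest 0.0010 and -0.04. All of these values lay within 1.2-fold of 1.

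Among the aldolases, Aldoa read 0.02 and -0.29 and the brain isoform Aldoc -0.10 and -0.14. Tpi1, which interconverts the triose phosphates, read -0.13 and 0.35, and its other probe 0.26 and 0.91. Both Tpi1 probes read higher on array 2 than on array 1. Gapdh, often used as a reference gene, read -0.01 and -0.10. The 9 probes named Gapdh had mean ratios between -0.13 and 0.05. Those with means of 0.0044 and -0.00096 have design positions on chromosome 7, and the others on chromosome 6.

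Further down the pathway the values were small and mostly negative. Pgk1, an X-linked gene, read 0.01 on the array of female pools and 0.03 on that of male pools. Pgam1 read -0.14 and -0.02, Eno1 -0.11 and -0.13, the neuronal enolase Eno2 -0.04 and -0.11, and Pkm2 -0.05 and -0.11. The other Pkm2 probe read -0.25 and 0.22, opposite on the arrays. Eno1 was thus lower by nearly the same step on both arrays, a mean of -0.12 ± 0.02 (SD, n = 2 arrays), yet its limma p was 0.447 with a moderated spread that draws on all genes. Ldha, the lactate dehydrogenase subunit of hypoxic tissue, read 0.02 and -0.04, and its other probes 0.17 and 0.19 in one case and 0.08 and -0.51 in the other. Ldhb, the subunit of oxidative tissue, read -0.24 and 0.09. None of these 7 genes was past 1.2-fold on either array by its brightest probe.

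**Figure D3:**
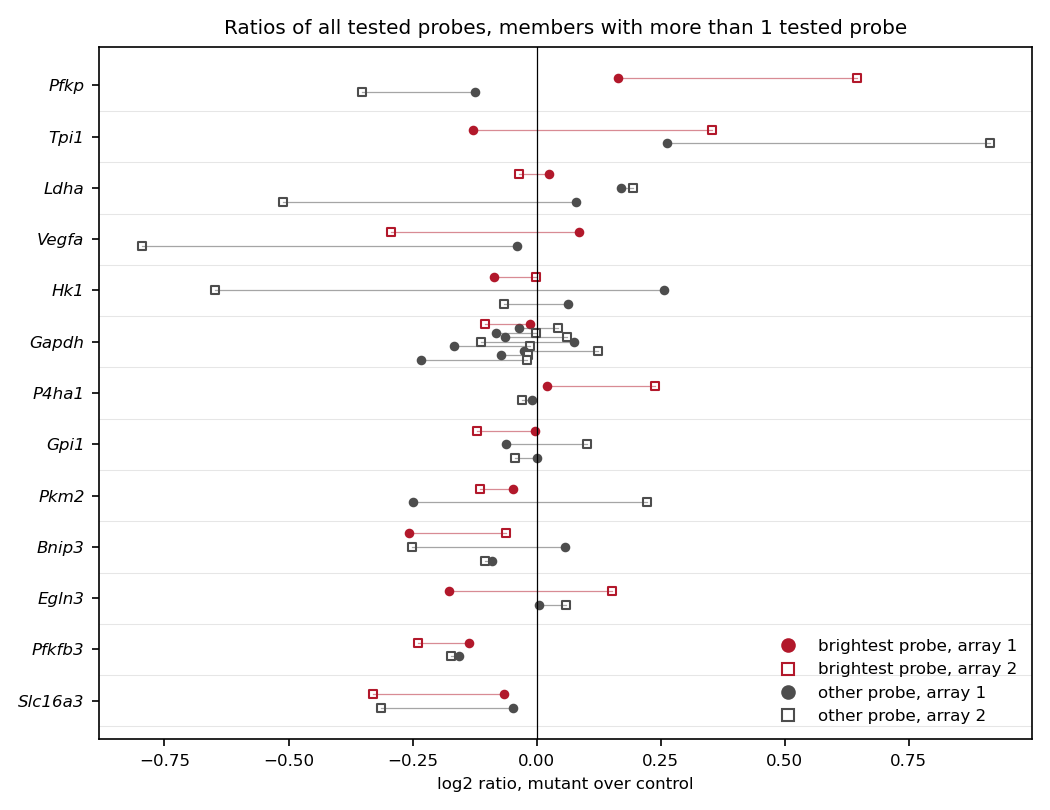
Log2 ratios of every tested probe for the 13 genes with more than 1 tested probe, array 1 as circles and array 2 as squares, the brightest probe in red and other probes in grey; genes are ordered by the range of their probe means. The 2 probes of Pfkp lie on opposite sides of 0 on both arrays, while those of Slc16a3 and Pfkfb3 nearly coincide. The Slc16a3 probes overlap in position.

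Probes of one gene often lay farther apart than the genes lay from 0. The median size of the 37 mean ratios, without sign, was 0.08. Of the 37 genes, 24 had 1 tested probe and 13 had more, with 37 probes among them. All probe means had one sign for 7 of the 13, and the median range of probe means was 0.15. The range was widest for Pfkp (0.64), Tpi1 (0.48), Ldha (0.40) and Vegfa (0.31). It was narrowest for Slc16a3 (0.02), whose probes overlap in position, and Pfkfb3 (0.02).

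The transporters and flux regulators had a median of -0.05, but the arrays differed: 0.10 on array 1 and -0.23 on array 2. Of the 7 genes, 2 were lower on both arrays, 1 was higher and 4 were mixed. Slc2a1, the glucose transporter GLUT1, read 0.10 and -0.26, and Slc2a3, the high-affinity transporter GLUT3, read 0.43 and -0.15. Slc2a3 levels were 10.48 in the mutant and 10.05 in the control on array 1, and 10.20 and 10.34 on array 2, so the groups overlapped. Slc16a3, the lactate exporter MCT4 and a known hypoxia target, read -0.07 and -0.33. Its other probe read -0.05 and -0.31, the narrowest range of probe means among the 13 genes. These probes overlap over most of their length (chr11:120820023-120820082 and chr11:120820030-120820089 on mm9), so they are not independent readings. Slc16a1, the carrier MCT1, read 0.10 and 0.03.

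The regulators of flux set the pace of phosphofructokinase and of pyruvate oxidation. Pfkfb3, which makes the activator fructose 2,6-bisphosphate, read -0.14 and -0.24, a mean of -0.19 ± 0.07 (SD, n = 2 arrays), and its other probe had a mean of -0.16. Its limma interval, from -0.54 to 0.16, included 0. Pfkfb4, another isoform of the same enzyme, read 0.13 and -0.23. Pdk1, which blocks pyruvate dehydrogenase in hypoxia, read -0.04 and 0.06. Slc16a3 and Pfkfb3 were the members of this class with more than 1 tested probe, so no other member could be compared between probes. For both genes the direction was the same over both arrays and both probes, and neither passed a test. The Slc16a3 probes overlap, and the other Pfkfb3 probe was dim, with levels from 6.45 to 6.87.

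The hypoxia response genes shared no direction. Their median log2 ratio was 0.04, with 0.02 on array 1 and 0.06 on array 2, and it turned to -0.03 with median centring. Of the 11 genes, 1 was lower on both arrays, 3 were higher and 7 pointed opposite ways. None passed the adjusted p threshold or an unadjusted p of 0.05.

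Ddit4, an inhibitor of mTOR signalling induced by hypoxia and other stresses, had the highest mean ratio of the class, though Ankrd37 and P4ha1 were higher on array 2. Its levels were 14.30 in the mutant and 13.85 in the control on array 1, and 14.05 and 13.83 on array 2. Both mutant levels were above both control levels, as they also were for Ndrg1 (11.27 and 11.46 against 11.26 and 11.24). The share over all genes was not counted. The ratios of 0.46 and 0.23 gave a mean of 0.34 ± 0.16 (SD, n = 2 arrays) with an unadjusted p of 0.06 in limma. All 8 spots were above 0, from 0.38 to 0.53 on array 1 and from 0.02 to 0.37 on array 2. With median centring the array 2 ratio was -0.06 and the mean 0.18, so the direction on array 2 depends on the centring.

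Ndrg1, a stress-response gene, read 0.01 and 0.22, and its mean was -0.03 with median centring. P4ha1, a collagen prolyl hydroxylase subunit, read 0.02 and 0.24, its mean was -0.0088 with median centring, and its other probe read -0.0090 and -0.03. Bnip3, a mitophagy receptor, was the gene of this class lower on both arrays, at -0.26 and -0.06 by its brightest probe. Its other probes read 0.06 and -0.25, opposite on the arrays, and -0.09 and -0.10. Vegfa, the endothelial growth factor, read 0.09 and -0.29, and its other probe -0.04 and -0.80. Adm, the vasodilator peptide adrenomedullin, read 0.36 and -0.26, the widest split between arrays in the class, with levels of 8.29 against 7.92 on array 1 and 7.83 against 8.09 on array 2. Ankrd37, an ankyrin-repeat protein gene, read -0.17 and 0.31.

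The oxygen sensors and the remaining targets also pointed both ways. Egln1 read 0.19 and -0.11 and Egln3 -0.18 and 0.15 by its brighter probe, while the other Egln3 probe read 0.0053 and 0.06. Car9, a carbonic anhydrase that is among the most hypoxia-specific targets, read -0.02 and 0.06, and P4ha2 0.14 and -0.25.

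**Figure D4:**
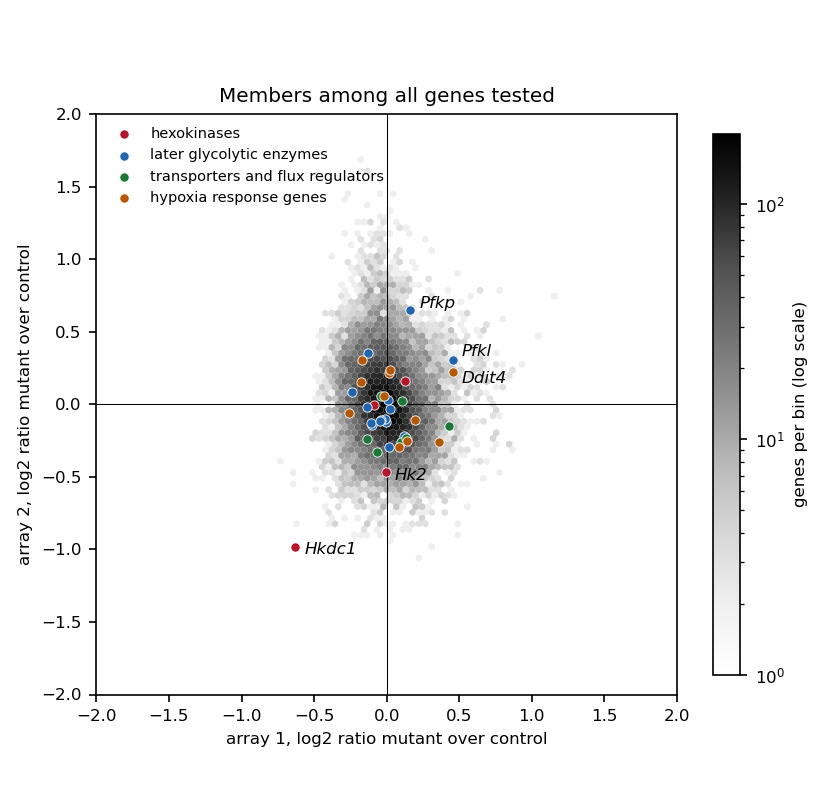
Log2 ratio on array 1 (horizontal) against array 2 (vertical) for all 20909 genes tested, as grey bins on a log scale, with the 37 genes coloured by class; axes run from -2 to 2, and the few genes beyond them are not drawn. Hkdc1 lies at the lower left edge of the cloud, Pfkl, Pfkp and Ddit4 in the upper right, and the other genes within the bulk.

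Promoters were examined as a description of the genes. The members include genes listed as targets of the low-oxygen response, so a frequent hypoxia response element among them is no independent result. The hypoxia response element core, ACGTG or GCGTG on either strand, was searched in the 250 bases before each start in RefSeq on GRCm38.p6, where 35 of the 37 genes matched, with 49 promoters; Ndrg1 and Slc2a3 did not match. A gene was counted when any of its promoters held a match. A core was present for 31 of 35 genes (88.6%), against 41.5% of 27025 genes at large, and ACGTG alone for 21 of 35 against 18.5% of genes at large. By class it was present for 10 of 10 hypoxia genes, 6 of 6 transporters and regulators, 12 of 15 later enzymes and 3 of 4 hexokinases. The promoters of these genes were also richer in G and C, with a median of 60.4% and 14 CpG pairs, against 52.4% and 6 for all promoters, and both words contain a CpG. Counted by promoter, a core was present in 79.6% of the 49 against 38.6% of 32851. The word CCGGAA of ETS factors was found for 4 of 35 (11.4%) against 13.6%. A match is a description of the sequence and not a site of binding.

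The promoter of Hkdc1, the gene with the lowest ratio, held no match and is printed beside those of Ankrd37 and Ldha, which held 4 and 5. Gpi1, Tpi1 and Eno2 held no match either, and their mean log2 ratios were -0.06, 0.11 and -0.07. The palindrome CACGTG counts once on each strand. Capitals mark the matches, and each run reads 5′ to 3′ along the gene.
Hkdc1, chr10:62422458-62422707, minus strand: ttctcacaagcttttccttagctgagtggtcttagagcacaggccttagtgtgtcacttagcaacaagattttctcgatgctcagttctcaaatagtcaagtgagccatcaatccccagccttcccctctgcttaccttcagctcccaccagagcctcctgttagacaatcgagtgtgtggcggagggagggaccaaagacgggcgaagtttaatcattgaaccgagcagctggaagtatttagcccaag
Ankrd37, chr8:45999851-46000100, minus strand: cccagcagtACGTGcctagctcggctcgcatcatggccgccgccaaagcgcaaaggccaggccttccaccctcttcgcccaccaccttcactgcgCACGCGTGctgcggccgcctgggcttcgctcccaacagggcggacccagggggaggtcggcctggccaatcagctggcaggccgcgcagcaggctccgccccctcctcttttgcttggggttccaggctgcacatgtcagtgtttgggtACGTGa
Ldha, chr7:46845554-46845803, plus strand: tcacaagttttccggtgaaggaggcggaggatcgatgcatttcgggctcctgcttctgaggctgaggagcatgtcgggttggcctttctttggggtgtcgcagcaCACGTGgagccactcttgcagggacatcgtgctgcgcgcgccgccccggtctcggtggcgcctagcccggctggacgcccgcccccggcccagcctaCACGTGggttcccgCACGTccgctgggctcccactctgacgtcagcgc
The Hkdc1 promoter had a GC content of 49.6% and 6 CpG pairs, close to the medians of all promoters. No match says only that these letters are absent from this window, and no relation between matches and ratios was tested.

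Other genes of the same pathways gave no more calls. Among further enzymes of glycolysis, 2 of 13 tested were lower on both arrays and 2 higher (median 0.00027). Among glycogen and pentose phosphate genes the counts were 3 and 4 of 16 (median 0.0064), and among genes of pyruvate oxidation and the citrate cycle 6 and 2 of 19 (median -0.03). Of 9 genes of hypoxia sensing, 1 was lower and 4 were higher (median 0.02), of 20 other hypoxia targets 3 and 5 (median 0.02), and of 12 other sugar and monocarboxylate transporters 4 and 3 (median 0.04). Of all genes tested, 21.4% were lower on both arrays and 22.1% higher. None of these pathway genes passed the adjusted p threshold in limma, where 0.0287% of all genes did.

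On both arrays 5 of these genes were past 1.2-fold in one direction. They were 3 higher among the 20 other hypoxia targets, and 1 higher and 1 lower among the 12 other transporters. Of all genes, 2.07% were at least 1.2-fold higher on both arrays and 1.33% lower. The 5 genes were named for their size and none was called. Hmox1, the haem-degrading enzyme, read 1.22 and 0.34 (0.78 ± 0.62, SD, n = 2 arrays), while its other probe read 0.29 and 0.10. Angptl4, an inhibitor of lipoprotein lipase, read 0.60 and 0.28, and Car12, a carbonic anhydrase, 0.46 and 0.34. Txnip, which restrains glucose uptake and is itself induced by glucose, read 0.38 and 0.43, and its other probe 0.11 and -0.03. Slc16a7, the carrier MCT2, was the lower one at -0.32 and -0.35, while its 3 other tested probes had means of 0.02, 0.03 and -0.02. For Hmox1 the erythroid and leukocyte markers were also higher in the mutant, by the medians given above, and their part was not tested. Hif1a, which encodes the oxygen-regulated subunit of the hypoxia-inducible factor, read -0.09 and 1.01 by its brighter probe and 0.10 and -0.13 by the other.

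The class medians and Hkdc1 were also computed under 8 other ways of processing. Hkdc1 was the lowest series in each, and among the classes the hypoxia genes had the highest median in each. Median centring, the setting with no correction for brightness, moved the classes most.

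**Figure D5:**
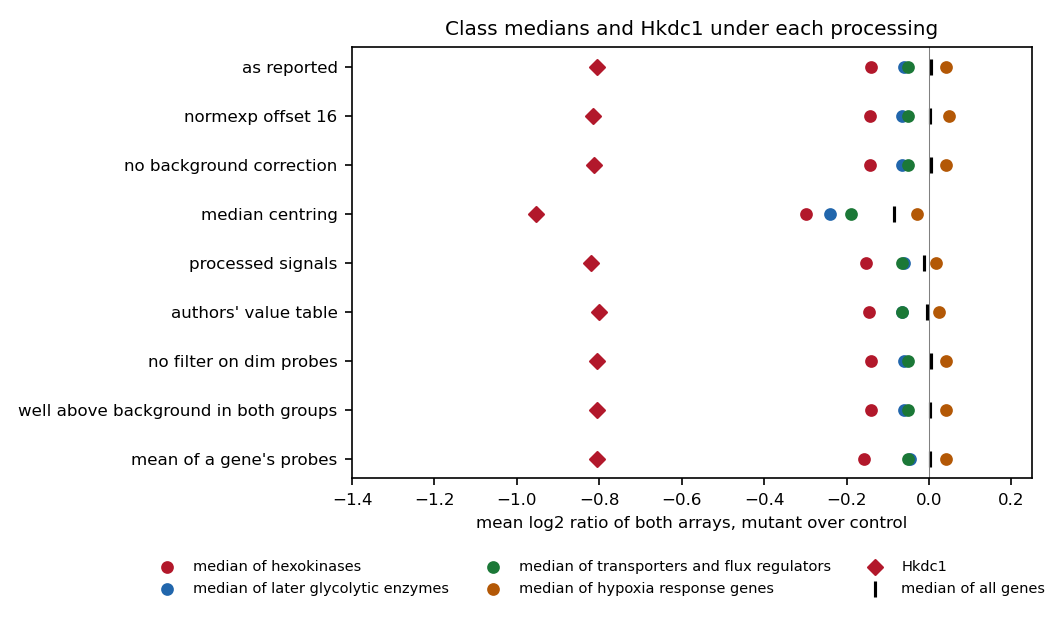
Mean log2 ratio of Hkdc1 (diamonds) and median log2 ratio of each class (circles) and of all genes tested (bars) under the reported processing and 8 alternatives. Hkdc1 stays between -0.95 and -0.80, while median centring shifts the hexokinases to -0.30, the later enzymes to -0.24 and all genes to -0.09.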

How the data were processed

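Per the labels' protocols, each labelling reaction for the 2 two-colour arrays of ureter RNA started from 150 ng. Per the submitters' processing notes, Agilent Feature Extraction 10.7.3.1 quantified the scans. Per the file headers, probe positions refer to mm9, and the spot means and local backgrounds (174979 spots an array) are raw intensity. Also per the file headers, the processed intensity had its background subtracted and detrended and its dyes balanced by LOWESS, and the log10 ratio is red over green. The authors' deposited table holds a score, a signed linear fold per probe and array; set against the processed signals (correlation across probes 0.973 and 0.991) it runs mutant over control, its column medians are 1, and its centring is unknown.

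Background was corrected with normexp (offset 50) and ratios normalised by loess (span 0.3) in limma 3.58.1 under R 4.3.3. Control spots had weight 0, and outlier-flagged spots (3.35% on array 1 and 3.05% on array 2) were dropped. The sign of array 2 was turned to give mutant over control throughout. Tested probes had a share above 0.5 of spots well above background on both arrays in at least the mutant or the control RNA. Each gene took its brightest tested probe. Genes were named through RefSeq accessions of GRCm38.p6 (28328 of 39429 probes matched), and by the array design otherwise. Ratios were tested against 0 with lmFit and eBayes and adjusted over 20909 genes by Benjamini-Hochberg, with 1 residual and 6.30 prior degrees of freedom. Channel levels are log2 values after Aquantile normalisation, and levels of different probes were not compared. On simulated data of 20909 genes for this comparison, the share of planted genes called was 7.95% for a 1.5-fold, 74.1% for a 2-fold and 99.5% for a 4-fold difference, and unchanged genes made up 9.83% of the calls. Arrays give no read depth, and their number limits the precision.

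The members and lists were chosen with earlier results of these data known. All members may be named, and other genes of the pathway lists where both arrays were past 1.2-fold in one direction, at most 4 a list; Hif1a was added after its values were seen. Tested alternatives were the background correction, normalisation, source of the values, filter, choice of probe and leaving out an array.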

Additional observations from a re-analysis of the deposited data

How the results depend on the processing

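No member passed the adjusted p threshold in limma under any of the 8 processing alternatives, with 1 to 3 members at an unadjusted p under 0.05 and a lowest adjusted p per alternative from 0.407 upward. Over all genes these alternatives called from 0 to 13, against 6 as reported: 0 with median centring or without a filter, 13 with a normexp offset of 16, 10 without background correction, and 4 with the mean of a gene's probes. Median centring moved the median of hexokinases to -0.30, of later glycolytic enzymes to -0.24 and of hypoxia response genes to -0.030. It left 4 members higher on both arrays, 0 at least 1.2-fold higher and 3 at least 1.2-fold lower (Hkdc1, Pfkfb3 and Bnip3). Its shift against loess ran from 0.06 for the dimmest to -0.18 for the brightest of 10 equal bins of probes, and the brightest bin holds 14 of the 37 members. In the authors' deposited values there were 3 members at least 1.2-fold higher (Hk3, Pfkl and Pfkp). The mean ratio changed sign for 7 members with median centring, 3 with the processed signals, 1 with the authors' table and 1 with the mean of a gene's probes, and Hkdc1 and Pfkl kept theirs in all 8.

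With 1 array left out there is no test, and counts on the remaining array are larger by construction: 19 to 23 members lower, 14 to 18 higher, 1 to 5 at least 1.2-fold lower and 4 to 4 at least 1.2-fold higher. No paired analysis was possible because the series has 1 group of ratios, each formed within an array. The 2 arrays could not resolve differences under about 0.36 on the log2 scale, and sex, dye and array cannot be told apart.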

Other observations

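None of the genes beside Hkdc1 on chromosome 10, in the gene order of GRCm38.p6, had a ratio as low as its own. On one side, Hk1 read -0.09 on array 1 and -0.0022 on array 2, Tacr2 -0.04 and 0.73, and Tspan15, a tetraspanin gene, -0.35 and -0.42. On the other side, Supv3l1 read -0.09 and 0.24, Vps26a -0.19 and 0.34, and Srgn 0.29 and -0.29. Farther out, Neurog3 read 0.18 and 1.19 beyond Tspan15, and Kifbp -0.09 and 0.10 beyond Srgn. Tspan15 was the neighbour lower on both arrays by at least 1.2-fold, as 1.33% of all genes were. These neighbours were chosen after the Hkdc1 value was seen.

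The hexamers of the polyadenylation signal, AATAAA or ATTAAA, were more frequent in the probes of the 37 genes than in probes at large. One of them was present in 21 of their 62 probes (33.9%), against 16.7% of all 39429 gene probes. The distance of these probes from a transcript end was not measured.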
